A study of Mus musculus with 8 samples.

Results

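Glucose uptake, glycolysis, lactate handling and the pentose phosphate pathway were examined as 33 named genes of the deposited gene table, chosen by symbol. All 33 were among its 26848 genes. Aldoa has 2 rows, so 34 rows were read, and all 34 passed the filter on low counts. The cells were RAW264.7, a transformed mouse line with macrophage features, cultured either on nano/microstructured polyetheretherketone (PEEK, a polymer of bone implants) or on smooth PEEK. There were 4 libraries on each surface, called structured 1 to 4 and smooth 1 to 4. The labels name no other treatment or genotype in either group, and no time in culture. RAW264.7 is 1 clonal line, and the labels number biological replicates without stating separate cultures, so p-values weigh differences only against the scatter among these 8 libraries, which could be technical.

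Glycolysis takes glucose from the medium to pyruvate in the cytosol. Its upper steps spend ATP to phosphorylate and split the sugar, and its lower steps return ATP and NADH. Lactate dehydrogenase then renews NAD, and monocarboxylate transporters carry lactate across the membrane. The pentose phosphate pathway leaves glycolysis after the first phosphorylation, with an oxidative part that yields NADPH and a non-oxidative part that makes ribose and returns sugars to glycolysis. Macrophages are known to raise glycolysis and lactate release when activated by microbial products, and to use NADPH for oxidant production and defence.

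Library totals ran from 64479829 to 73098735 estimated counts. The filter left 16006 genes for testing, and their median log2 fold change was 0.01. Of 12 macrophage markers 11 were above 0 in every library, Mertk being the exception, and their summed level was 7232 to 7366 CPM (counts scaled to 1000000 per library) on structured and 6926 to 7393 CPM on smooth PEEK. Transcripts listed as markers of other cell types were present at low levels, and their sums differed between libraries. The 16 hepatocyte markers summed to 125 to 439 CPM on structured and 70.8 to 299.9 CPM on smooth PEEK, highest in structured 4, smooth 1 and structured 3. The 16 skeletal muscle markers summed to 16.1 to 24.9 and 22.3 to 69.3 CPM, and the 14 neutrophil markers to 67.3 to 108 and 55.6 to 65.3 CPM. By edgeR with BH adjustment 1 of the 11 tested macrophage markers and 4 of the 14 tested muscle markers fell on structured PEEK. Of the 7 tested neutrophil markers 5 rose. Mmp9 was the most abundant of the neutrophil markers, at 48.955 to 54.1 CPM on structured and 53.3 to 64.0 CPM on smooth PEEK. Tnni2 was the most abundant of the muscle markers, at 12.9 to 14.6 CPM on structured and 9.72 to 15.7 CPM on smooth PEEK. Mmp8, a marker of neutrophil granules, was at 0.750, 12.2, 12.0 and 12.8 CPM in structured 1 to 4 and at 0 in all 4 smooth libraries. The part of these transcripts in the results was not tested.

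The fold changes between the surfaces were small. On structured PEEK 1 of the 34 rows rose, the lactate transporter gene Slc16a1, and 2 fell, the glucose transporter gene Slc2a1 and the hexokinase gene Hk1. These calls used edgeR's quasi-likelihood test with Benjamini-Hochberg (BH) adjustment over all tested genes, at a threshold of 0.05. Of all tested genes 1.01% were called higher and 2.75% lower on structured PEEK, 3.75% in all, against 2.94% and 5.88% of the 34 rows. The median log2 fold change of the 34 rows, structured over smooth, was -0.02. In bulk RNA, fewer cells of a kind and less RNA per cell cannot be told apart.

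The 250 bases upstream of the RefSeq transcription start (mouse build GRCm38.p6) are shown for the 3 called genes and for Ldha. The Ldha window held the most matches of the motifs searched when overlapping matches are counted separately. Its 5 matches of ACGTG and 2 of CACGTG share bases. Each window is written 5′ to 3′ on the gene's strand. Where RefSeq gives several starts, the window nearest the gene's 5′ end in the deposited table was taken. For Ldha that start lies 4329 bases inside the deposited gene. Capitals mark matches on either strand to ACGTG or GCGTG (cores of the hypoxia response element), CACGTG (an E-box), TGACNNNGC (core of the antioxidant response element) or TGANTCA (an AP-1 site). The regions are chr4:119108495-119108744, plus strand for Slc2a1, chr3:104638414-104638663, plus strand for Slc16a1, chr10:62379909-62380158, minus strand for Hk1 and chr7:46845554-46845803, plus strand for Ldha.
Slc2a1: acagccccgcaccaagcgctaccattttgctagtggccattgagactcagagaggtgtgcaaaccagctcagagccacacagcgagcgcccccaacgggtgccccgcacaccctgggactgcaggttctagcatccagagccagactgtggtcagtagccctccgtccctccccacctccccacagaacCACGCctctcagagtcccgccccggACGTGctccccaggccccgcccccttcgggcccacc
Slc16a1: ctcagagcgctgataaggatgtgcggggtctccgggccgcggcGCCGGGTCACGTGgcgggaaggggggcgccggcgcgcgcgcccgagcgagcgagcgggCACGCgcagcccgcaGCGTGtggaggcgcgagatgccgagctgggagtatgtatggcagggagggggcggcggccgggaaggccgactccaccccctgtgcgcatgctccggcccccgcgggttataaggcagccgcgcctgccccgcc
Hk1: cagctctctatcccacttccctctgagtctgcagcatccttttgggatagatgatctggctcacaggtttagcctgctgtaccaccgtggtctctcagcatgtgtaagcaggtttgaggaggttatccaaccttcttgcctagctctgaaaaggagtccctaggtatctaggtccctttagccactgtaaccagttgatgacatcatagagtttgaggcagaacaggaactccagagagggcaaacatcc
Ldha: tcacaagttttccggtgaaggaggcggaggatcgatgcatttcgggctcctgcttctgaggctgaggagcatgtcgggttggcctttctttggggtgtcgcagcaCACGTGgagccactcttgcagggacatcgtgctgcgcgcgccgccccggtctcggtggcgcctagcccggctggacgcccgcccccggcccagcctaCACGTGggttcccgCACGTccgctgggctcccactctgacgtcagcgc

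Windows were found for 32 of the 33 genes, not for Slc2a3. ACGTG was in 10 of the 32, among them Slc2a1, Slc16a1, Hk2, Pgk1, Pgam1 and Ldha, and in 16.6% of all 32851 RefSeq windows of this length. GCGTG was in 18 of the 32 and in 28.2% of all windows. CACGTG, which contains ACGTG on both strands, was in Slc16a1, Pfkm and Ldha and in 6.02% of all windows. TGACNNNGC was in Slc16a1 and G6pdx and in 10.2% of all windows, and TGANTCA in none of the 32 and in 6.75% of all. The Hk1 window held none of these motifs. RefSeq gives 2 windows for Hk1 and 4 for Pfkm, and only the 1 nearest the deposited 5′ end was searched for each. The 32 windows had a GC content of 36.4 to 76.4%. All windows include several for some genes and were not matched to the 32 on GC content, and the shares were not tested. A match describes the sequence and does not show binding.

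Of the glucose transporters, Slc2a1 (GLUT1, the main transporter of most proliferating cells; ENSMUSG00000028645; chromosome 4, 119108711 to 119137983) was at 157, 161, 173 and 162 CPM in structured 1 to 4, against 200.4, 186, 192 and 177 CPM in smooth 1 to 4. Every structured library lay below every smooth one. Its mean fell to 163 ± 6.99 CPM on structured PEEK, against 189 ± 9.96 CPM on smooth PEEK (SD, n = 4 per group), 13.5% lower (log2 fold change -0.21 ± 0.05 (SE); edgeR BH-adjusted p = 0.0346). Slc2a3 (GLUT3, a high-affinity transporter) was at 61.3 to 64.9 CPM on structured and 59.7 to 66.0 CPM on smooth PEEK, a log2 fold change of -0.01 ± 0.05. Slc2a6, an intracellular member of the family, was at 30.4 to 38.0 CPM on structured and 31.5 to 37.9 CPM on smooth PEEK, with a log2 fold change of 0.04 ± 0.08. For both genes the groups overlapped and no call was made. The share of Slc2a1 in the summed FPKM (level per gene length) of the 3 transporters was 70.4 ± 1.76% on structured and 73.6 ± 0.437% on smooth PEEK (SD, n = 4 per group), with every structured library below every smooth one. The share of Slc2a3 was 13.1 ± 0.206% and 12.0 ± 0.912%, with every structured library above every smooth one.

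Slc16a1 (MCT1, which carries lactate and pyruvate with a proton in either direction; ENSMUSG00000032902; chromosome 3, 104638668 to 104658462) was at 410.3, 415, 401 and 405 CPM in structured 1 to 4, against 354, 370.0, 375 and 360.3 CPM in smooth 1 to 4. The lowest structured library lay above the highest smooth one. Its mean rose to 408 ± 6.21 CPM, against 365 ± 9.52 CPM on smooth PEEK (SD, n = 4 per group), 11.7% higher (log2 fold change 0.16 ± 0.03 (SE); edgeR BH-adjusted p = 0.0267). Slc16a3 (MCT4, the lactate exporter of highly glycolytic cells) was at 316, 349.6, 331 and 325 CPM in structured 1 to 4, against 341, 329, 303 and 287 CPM in smooth 1 to 4. Its groups overlapped, and its log2 fold change of 0.07 ± 0.06 was not called. In FPKM, Slc16a1 was at 86.4 ± 1.03 on structured and 77.1 ± 1.46 on smooth PEEK, and Slc16a3 at 58.3 ± 2.15 and 55.4 ± 4.94. The share of Slc16a1 in their sum overlapped between the surfaces, at 59.7 ± 0.949% and 58.2 ± 2.17%. Bsg, the chaperone that brings both transporters to the membrane, was at 357 ± 7.74 CPM on structured and 330.0 ± 15.8 CPM on smooth PEEK, without a call (edgeR BH-adjusted p = 0.151).

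**Figure D1:**
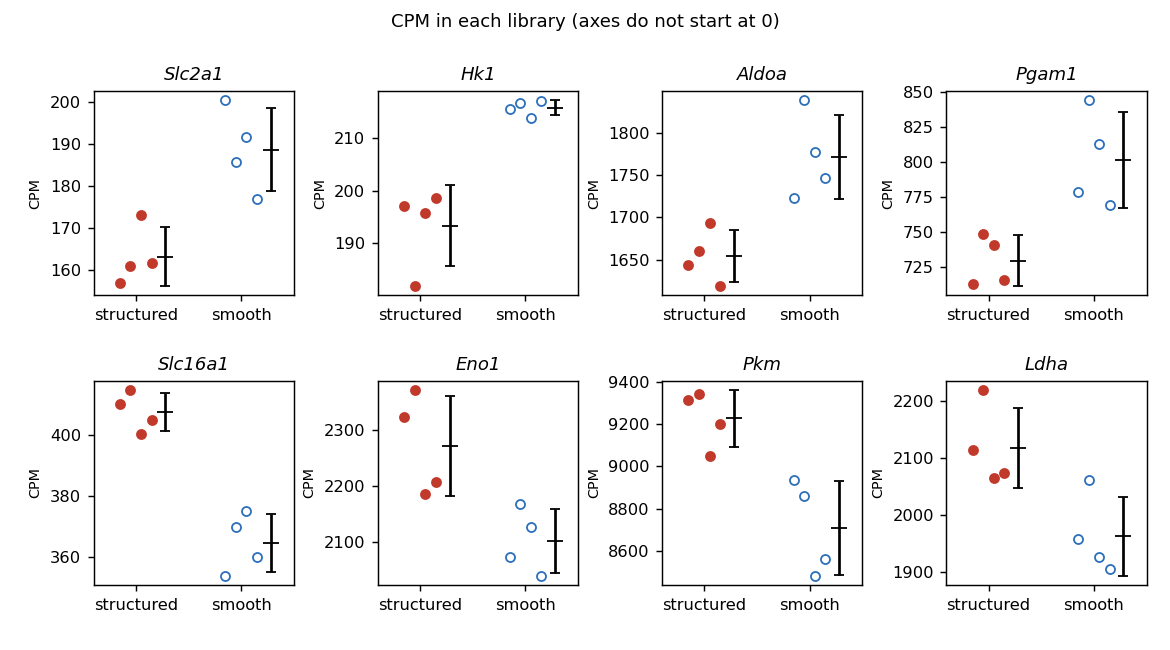
CPM (scaled counts, vertical axes that do not start at 0) of 8 genes in each library, with filled points for structured PEEK, open points for smooth PEEK, and bars for the mean and SD of 4 libraries. Slc2a1, Hk1, Aldoa and Pgam1 lie lower in every structured library than in any smooth one, and Slc16a1, Eno1, Pkm and Ldha lie higher; the test called Slc2a1, Hk1 and Slc16a1.

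The hexokinases trap glucose by phosphorylating it. Hk1, the housekeeping form that binds mitochondria (ENSMUSG00000037012; chromosome 10, 62268855 to 62379908), was at 197, 182, 196 and 199 CPM in structured 1 to 4, against 215, 217, 214 and 217 CPM in smooth 1 to 4. Structured 2 was the lowest of all 8 libraries, and the smooth libraries lay close together. The mean fell to 193 ± 7.72 CPM on structured PEEK, against 216 ± 1.44 CPM on smooth PEEK (SD, n = 4 per group), 10.4% lower (log2 fold change -0.16 ± 0.04 (SE); edgeR BH-adjusted p = 0.0416). Hk2, the inducible form, was at 144, 159.6, 149 and 158 CPM in structured 1 to 4, against 180.5, 160.3, 160.3 and 147 CPM in smooth 1 to 4, and the groups overlapped. Hk3, a form of myeloid cells, was at 62.7 to 71.4 CPM on structured and 71.4 to 81.7 CPM on smooth PEEK, just short of overlapping, with a log2 fold change of -0.16 ± 0.05 that was not called (edgeR BH-adjusted p = 0.127). On the FPKM scale the 3 forms were present at like levels. Hk1 made up 34.1 ± 1.82% of their sum on structured and 34.7 ± 1.17% on smooth PEEK, Hk2 38.4 ± 1.07% and 37.2 ± 2.25%, and Hk3 27.5 ± 1.04% and 28.1 ± 1.62% (SD, n = 4 per group). Each share overlapped between the surfaces. The gene lengths behind the deposited FPKM are not given, and the shares depend on them. Hk1 had the highest CPM of the 3 forms. Its longest annotated transcript, at 4278 bases, was shorter than that of Hk2, at 5513 bases. By those lengths Hk1 would be the main form on both surfaces.

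None of these 3 calls was firm. Slc2a1 lost its call without structured 1, 2 or 4 or smooth 1, 2 or 3, Slc16a1 without structured 1, 2 or 4 or smooth 2 or 4, and Hk1 whichever of the 8 libraries was left out. Slc2a1 and Hk1 lost it also with a replicate block, with no filter on low counts and with limma on log2 FPKM. All 3 genes lost it with structured 3, structured 4 and smooth 1 left out together, the libraries with the highest hepatocyte sums, in a fit of only 5 libraries. The log2 fold changes there were as large, at -0.22 for Slc2a1, 0.16 for Slc16a1 and -0.19 for Hk1. With the trend of counts on GC content and length removed, Hk1 went to -0.09 (edgeR BH-adjusted p = 0.284) and Slc2a1 to -0.18 (0.0517), while Slc16a1 kept its call at 0.15 (0.0465). Over all alternatives the adjusted p ran from 0.000557 to 0.111 for Slc2a1, from 4.09e-05 to 0.116 for Slc16a1 and from 0.00209 to 0.284 for Hk1. In all of these fits Slc2a1 and Hk1 were lower and Slc16a1 higher on structured PEEK.

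In the rest of upper glycolysis no row was called. Its 11 rows, hexokinases included, had a median log2 fold change of -0.105, with 9 below 0. The groups did not overlap in 5 of them, each lower on structured PEEK, namely Hk1, Hk3, Gpi1, Pfkm and Aldoa. Of all tested genes 7.03% were lower without overlap, and 11% of those with a mean of at least 10 CPM. Gpi1, which turns the phosphorylated glucose into fructose phosphate, was at 769.9, 765, 784 and 754 CPM in structured 1 to 4, against 800.2, 839, 854 and 813 CPM in smooth 1 to 4 (log2 fold change -0.10 ± 0.03; edgeR BH-adjusted p = 0.0969). Aldoa, the main aldolase, which splits the sugar bisphosphate, was at 1644, 1661, 1694 and 1619 CPM in structured 1 to 4, against 1723, 1838, 1777 and 1747 CPM in smooth 1 to 4 (-0.10 ± 0.03; adjusted p = 0.0952). In both genes the surfaces were separated by a few percent and short of the threshold. The second Aldoa row (ENSMUSG00000114515), next to the first on chromosome 7, held only 1.22 CPM on structured and 1.57 CPM on smooth PEEK. Aldoc, an aldolase best known from brain, was at 29.7 to 32.9 and 29.5 to 32.7 CPM and overlapped.

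Tpi1, which interconverts the 2 triose phosphates at the boundary to the lower steps, was the one upper gene with higher values on structured PEEK by more than its SE. It was at 992, 1088, 982 and 979 CPM in structured 1 to 4, against 949.6, 987, 922 and 891 CPM in smooth 1 to 4. Structured 2 was far above the rest, the groups overlapped, and the log2 fold change of 0.11 ± 0.04 was not called (edgeR BH-adjusted p = 0.203).

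Phosphofructokinase makes the committed step of glycolysis. Pfkl, named for liver, was at 224 to 239 CPM on structured and 233 to 252 CPM on smooth PEEK, and Pfkp, named for platelets, at 226.43 to 264.74 and 259.8 to 275 CPM, both overlapping. Pfkm, the muscle form, was at 17.27, 16.22, 17.86 and 15.50 CPM in structured 1 to 4, against 20.001, 21.72, 20.97 and 18.39 CPM in smooth 1 to 4, a log2 fold change of -0.28 ± 0.07 that was not called (edgeR BH-adjusted p = 0.0605). It was called with a minimum count of 40 and with counts divided by 4, where fewer genes were tested, and by DESeq2, with adjusted p from 0.0209 to 0.174 across the alternatives tried. The sum of the muscle markers, 4 of which fell on structured PEEK, was highest in smooth 1 and smooth 4, at 69.3 and 42.6 CPM, while Pfkm was highest in smooth 2 and lowest among the smooth libraries in smooth 4; their part in the Pfkm values was not tested. Pfkm also overlaps Senp1 on the opposite strand, which held 90.4 CPM. Pfkp likewise overlaps Pitrm1 on the opposite strand, which held 130 CPM. The strand setting of the counting is not given in the sources used here. In FPKM, Pfkl made up 59.9 ± 1.53% of the 3 forms on structured and 58.4 ± 0.566% on smooth PEEK, Pfkp 31.5 ± 1.32% and 31.9 ± 0.819%, and Pfkm 8.57 ± 0.452% and 9.74 ± 0.409% (SD, n = 4 per group). The share of Pfkm was lower in every structured library than in any smooth one.

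Pfkfb3 and Pfkfb4 set the level of the sugar bisphosphate that switches phosphofructokinase on. Pfkfb3 was at 26.5, 25.9, 25.5 and 25.6 CPM in structured 1 to 4, against 29.1, 30.6, 29.5 and 26.9 CPM in smooth 1 to 4, without overlap and without a call (log2 fold change -0.16 ± 0.05; edgeR BH-adjusted p = 0.112). Pfkfb4 was at 14.3 to 19.9 CPM on structured and 15.8 to 18.0 CPM on smooth PEEK and overlapped.

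**Figure D2:**
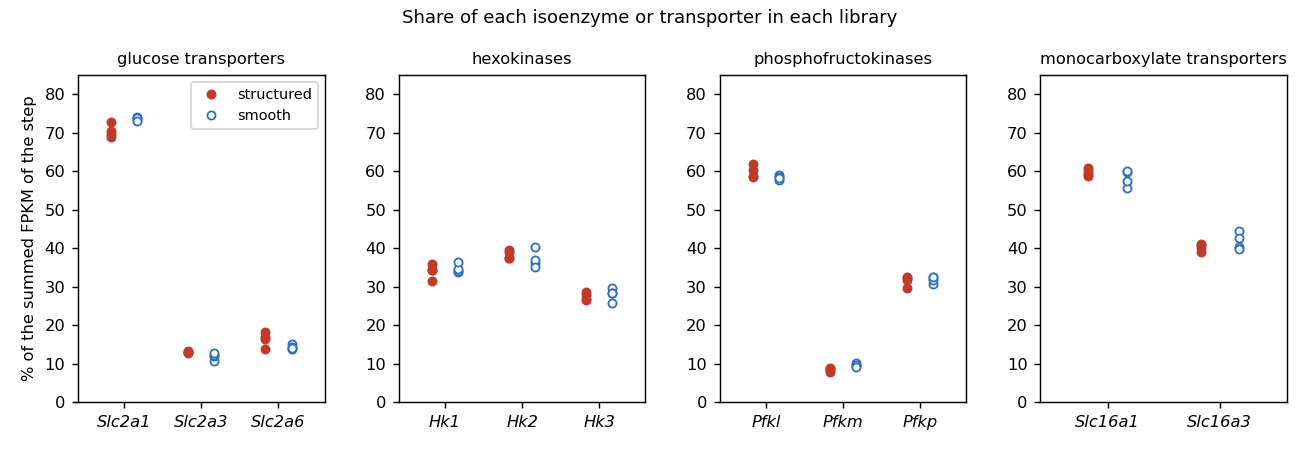
Share of each form (percent of the summed FPKM of its step, vertical axis) in each library for the glucose transporters, hexokinases, phosphofructokinases and monocarboxylate transporters, with filled points for structured and open points for smooth PEEK. By the means the forms had the same order within each step on both surfaces, and the share of Slc2a1 was 70.4 ± 1.76% on structured and 73.6 ± 0.437% on smooth PEEK.

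Lower glycolysis differed from upper glycolysis in the sign of its median. Its 6 genes had a median log2 fold change of 0.07, with 4 above 0, and none was called by edgeR. Among these 4 was the Gapdh row, which held only 1.67% of the level summed with its near-identical copies. At an unadjusted edgeR p under 0.05 there were 2 higher and 2 lower, where 8.14% and 10.6% of all tested genes were. DESeq2 called 2 higher and 2 lower, where it called 4.84% and 7.63% of all genes to which it gave an adjusted p. Pkm, pyruvate kinase, which makes pyruvate and ATP in the last step, was the highest of all 34 rows at 1731 ± 21.9 FPKM on structured and 1629 ± 59.9 FPKM on smooth PEEK (SD, n = 4 per group). It was at 9314, 9342, 9049 and 9199.6 CPM in structured 1 to 4, against 8933, 8858, 8483 and 8560.4 CPM in smooth 1 to 4, and the groups did not overlap. The log2 fold change of 0.08 ± 0.02 missed the threshold (edgeR BH-adjusted p = 0.0764) but was called at 0.12 with the GC and length trend removed (0.0297), with a replicate block, by DESeq2 and without smooth 1, with adjusted p from 0.0297 to 0.475. Gene counts do not resolve its splice forms.

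Eno1, the main enolase, was at 2322, 2371, 2186 and 2207 CPM in structured 1 to 4, against 2073, 2169, 2126 and 2040.4 CPM in smooth 1 to 4, without overlap (log2 fold change 0.11 ± 0.03; edgeR BH-adjusted p = 0.0965). Near-identical copies of it, Eno1b and Gm4735, held 841 and 831 CPM, so 56.5% of the summed level was in the row named Eno1. Eno1b rose to 883 ± 20.2 CPM, against 799.8 ± 27.4 CPM on smooth PEEK (SD; log2 fold change 0.14 ± 0.03; edgeR BH-adjusted p = 0.0454), and lost that call whichever of the 8 libraries was left out. Reads of Eno1 and its copies cannot be told apart here. Summed over Eno1 and its 3 copies, the level was 4096, 4174, 3939 and 3922 CPM in structured 1 to 4, against 3617, 3812, 3753 and 3643 CPM in smooth 1 to 4. That sum rose by 0.12 ± 0.03 on the log2 scale (SE; edgeR BH-adjusted p = 0.0461), in a fit added after the data were seen. Eno2, the neuronal enolase, was low at 12.97, 12.56, 10.09 and 12.04 CPM in structured 1 to 4, against 19.05, 13.07, 15.03 and 14.78 CPM in smooth 1 to 4. Its log2 fold change of -0.38 ± 0.12 was not called (edgeR BH-adjusted p = 0.112).

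Gapdh, the first enzyme of the lower steps and a common reference gene, stood at 104 ± 7.32 CPM on structured and 92.3 ± 10.2 CPM on smooth PEEK (SD, n = 4 per group), far below its neighbours in the pathway. Its row held 1.67% of the summed level of Gapdh and 43 near-identical copies in the table, of which Gm13394 alone held 2649 CPM. The row is therefore no measure of the Gapdh transcript. With the copies added the level was 6046, 6337, 5921 and 5768 CPM in structured 1 to 4, against 5596, 6024, 5699 and 5606 CPM in smooth 1 to 4. The groups overlapped, and the log2 fold change of the sum was 0.07 ± 0.03 (SE; edgeR BH-adjusted p = 0.297), against 0.17 ± 0.08 in the row alone (0.269).

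Pgk1, which makes the first ATP of the pathway, was at 1237 to 1287 CPM on structured and 1128 to 1251 CPM on smooth PEEK and overlapped. Pgam1, the mutase that follows it, went the other way from Pkm and Eno1. It was at 713, 749, 741 and 715 CPM in structured 1 to 4, against 779, 844, 813 and 769 CPM in smooth 1 to 4, with every structured library below every smooth one (log2 fold change -0.14 ± 0.04; edgeR BH-adjusted p = 0.0702). It was called by DESeq2 and with a replicate block, with adjusted p from 0.00612 to 0.184. For Gpi1, Ldha, Pgam1, Pgk1, Pkm, Rpia, Tpi1 and Ldhb, copies held under 10% of the summed level and adding them gave no call.

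**Figure D3:**
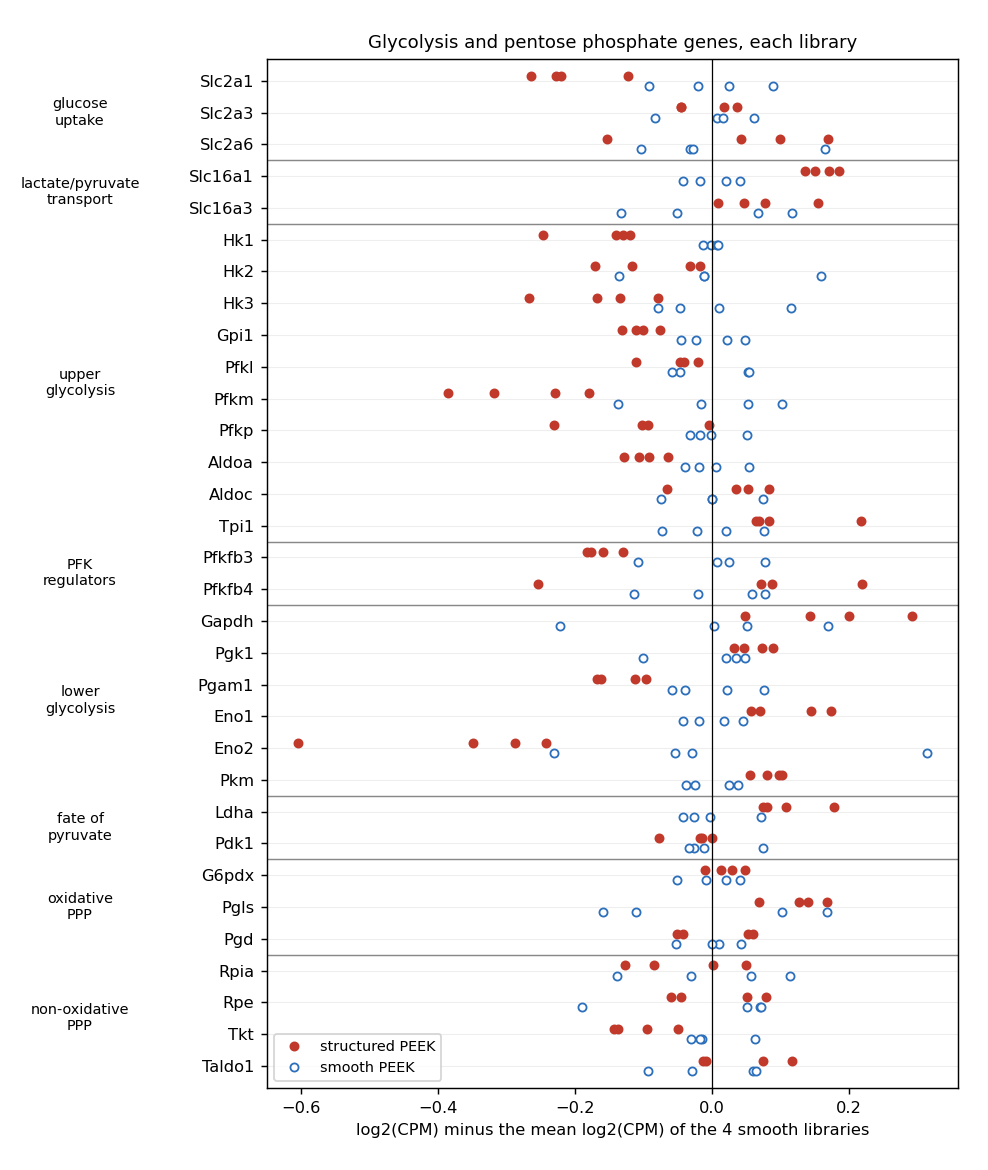
Difference of each library from the mean of the 4 smooth libraries (log2 CPM, horizontal axis) for 32 genes ordered by step, with filled points for structured and open points for smooth PEEK; Ldhb and the second Aldoa row are not drawn because of their low counts. Upper glycolysis lies mostly left of 0 on structured PEEK, as do Pgam1 and Eno2 of the lower steps, and Eno1, Pkm, Ldha and Slc16a1 lie right of 0.

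Ldha, the lactate dehydrogenase subunit that favours lactate, was at 2113, 2218, 2065 and 2073 CPM in structured 1 to 4, against 1958, 2061, 1926 and 1904 CPM in smooth 1 to 4. Structured 3 lay just above smooth 2, so the groups touched without overlap, and the log2 fold change of 0.11 ± 0.03 was not called (edgeR BH-adjusted p = 0.104). It was called by DESeq2 and with a replicate block, with adjusted p from 0.0195 to 0.269. Ldhb, the subunit of oxidative tissues, was close to absent, at 0.418, 0.664, 0 and 0 CPM in structured 1 to 4, against 1.17, 0.721, 1.33 and 0.749 CPM in smooth 1 to 4, and its difference was not called (edgeR BH-adjusted p = 0.338). Ldhb made up 0.0416, 0.0620, 0 and 0% of their summed FPKM in structured 1 to 4, against 0.126, 0.0731, 0.145 and 0.0820% in smooth 1 to 4, so nearly all of the level per gene length was Ldha on both surfaces. Pdk1, the kinase that turns pyruvate dehydrogenase off, was at 71.0 to 74.9 CPM on structured and 73.1 to 78.8 CPM on smooth PEEK and overlapped.

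In the pentose phosphate pathway no gene was called by edgeR. G6pdx, the entry enzyme and first source of NADPH, was at 435, 442, 448 and 453 CPM in structured 1 to 4, against 423, 451, 436 and 445 CPM in smooth 1 to 4. Pgd, the enzyme of the second NADPH-yielding step, was at 715, 720.0, 772 and 769 CPM in structured 1 to 4, against 747, 763, 715 and 741 CPM in smooth 1 to 4. In both genes the groups overlapped in part, with log2 fold changes of 0.02 ± 0.03 and 0.01 ± 0.04 (SE, n = 4 per group). Pgls, the lactonase between them, was at 79.2 to 84.9 CPM on structured and 67.7 to 84.9 CPM on smooth PEEK and overlapped, with 2 of the smooth libraries low.

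Of the non-oxidative enzymes, Tkt, transketolase, which moves carbon units between sugars, was at 597, 615, 635 and 595 CPM in structured 1 to 4, against 643, 686, 650.3 and 649 CPM in smooth 1 to 4. Every structured library lay below every smooth one, with a log2 fold change of -0.11 ± 0.04 that edgeR did not call (BH-adjusted p = 0.122). Taldo1, transaldolase, which works beside it, was at 193 to 211 CPM on structured and 182 to 203 CPM on smooth PEEK and overlapped. The isomerase gene Rpia was at 29.0 to 32.8 and 28.7 to 34.2 CPM, and the epimerase gene Rpe at 46.8 to 51.6 and 42.8 to 51.3 CPM, with Rpe lowest in smooth 1. Rpe overlaps Kansl1l on the opposite strand, which held 24.7 CPM.

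Set side by side by step, the median log2 fold change was -0.01 for 3 glucose transporters, -0.105 for 11 rows of upper glycolysis and -0.06 for the 2 phosphofructokinase regulators. It was 0.07 for 6 genes of lower glycolysis, 0.11 for the 2 monocarboxylate transporters and -0.03 for Ldha, Ldhb and Pdk1. For the pentose phosphate branch it was 0.02 over 3 oxidative and -0.02 over 4 non-oxidative genes. Measured against the smooth mean of each gene, the median of upper glycolysis was -0.11, -0.09, -0.08 and -0.10 in structured 1 to 4, against -0.0017, 0.05, 0.0098 and -0.05 in smooth 1 to 4. That of lower glycolysis was 0.06, 0.09, 0.05 and 0.06 in structured 1 to 4, against 0.0086, 0.04, -0.0061 and -0.03 in smooth 1 to 4. By these medians all 4 structured libraries lay below the smooth libraries in the upper steps and above them in the lower steps. The single genes of the lower steps went both ways. Without overlap 2 of them were higher on structured PEEK, Eno1 and Pkm, and 2 were lower, Pgam1 and Eno2. The lower steps include the Gapdh row, which lacks the counts given to its copies. The genes of each step were chosen with earlier results known, so the difference between steps was not tested. With the GC and length trend removed the medians were -0.08 for the upper and 0.07 for the lower steps.

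Over the 34 rows the groups did not overlap in 4 with higher and 11 with lower values on structured PEEK. These are 11.8% and 32.4% of the rows, where 5.19% and 7.03% of all tested genes did so. Most of the rows are abundant, and of the 8884 tested genes with a mean of at least 10 CPM, 7.52% and 11% did so, with 1.38% called higher and 4.85% called lower by edgeR. DESeq2 called 12 of the 32 rows to which it gave an adjusted p, where it called 12.5% of all such genes. These were Slc16a1, Eno1, Pkm and Ldha higher and Slc2a1, Hk1, Gpi1, Pfkm, Aldoa, Pgam1, Eno2 and Tkt lower. With the GC and length trend removed edgeR called Pkm and Slc16a1 higher and no row lower, where it called 1.76% of all tested genes.

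**Figure D4:**
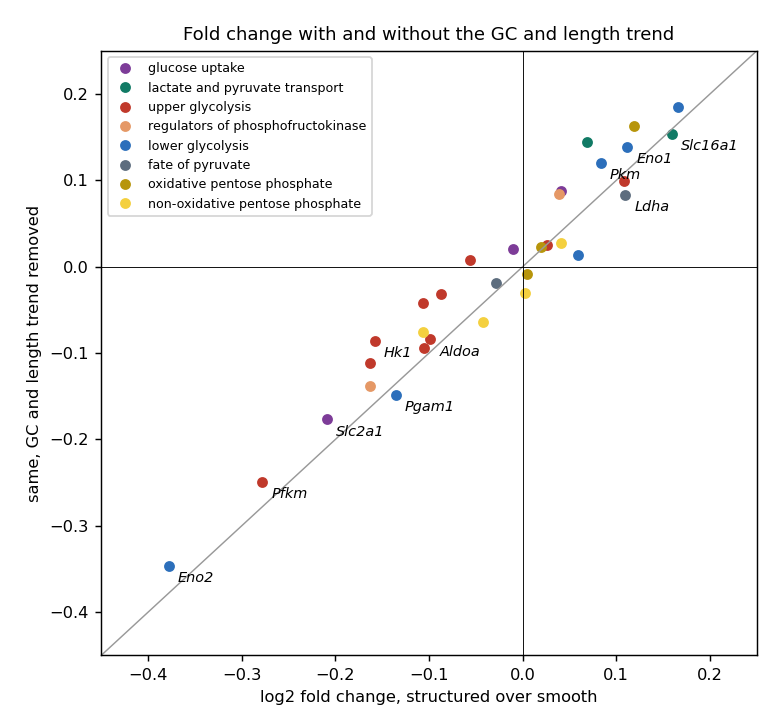
Log2 fold change, structured over smooth PEEK, with the trend on GC content and length removed (vertical axis) against the value without that step (horizontal axis) for 32 genes, coloured by step, with a line of equality. Hk1 is at -0.09 with the trend removed and -0.16 without that step, and Pkm at 0.12 and 0.08.

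The deposited FPKM fell into much the same order on both surfaces. The order between genes depends on the gene lengths behind the FPKM, which are not given. Pkm was followed by Ldha at 600.2 ± 16.5 FPKM on structured and 554 ± 21.7 FPKM on smooth PEEK, Aldoa at 533 ± 10.6 and 569 ± 13.7, and Pgk1 at 528 ± 8.02 and 505 ± 17.1 (SD, n = 4 per group). On structured PEEK Aldoa and Pgk1 lay within their spread of each other. The Eno1, Pgam1 and Tpi1 rows came next, at 344 to 396 FPKM on structured and 318 to 378 FPKM on smooth PEEK. The Eno1 row was the highest of them on structured and Pgam1 on smooth PEEK. The Eno1 row lacks the counts given to its copies, so the rank of Eno1 cannot be read from it. Its copy Eno1b alone was at 442 ± 9.68 FPKM on structured and 398 ± 8.99 FPKM on smooth PEEK. G6pdx followed these rows at 135 ± 2.45 and 133 ± 2.57. The enzymes that phosphorylate glucose and fructose phosphate were lower, with Pfkl at 32.8 ± 0.819 and 33.95 ± 1.31 FPKM and Hk2 at 24.0 ± 1.06 and 25.4 ± 2.49 FPKM. Slc2a1 was at 43.7 ± 1.94 FPKM on structured and 50.3 ± 3.23 FPKM on smooth PEEK. Slc2a6 was at 10.2 ± 0.942 and 9.87 ± 0.943 FPKM, and Slc2a3 at 8.14 ± 0.227 and 8.16 ± 0.245 FPKM. At the low end, below 5 FPKM on structured PEEK, were Pfkm, Pfkfb3, Pfkfb4, Eno2, the second Aldoa row and Ldhb.

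**Figure D5:**
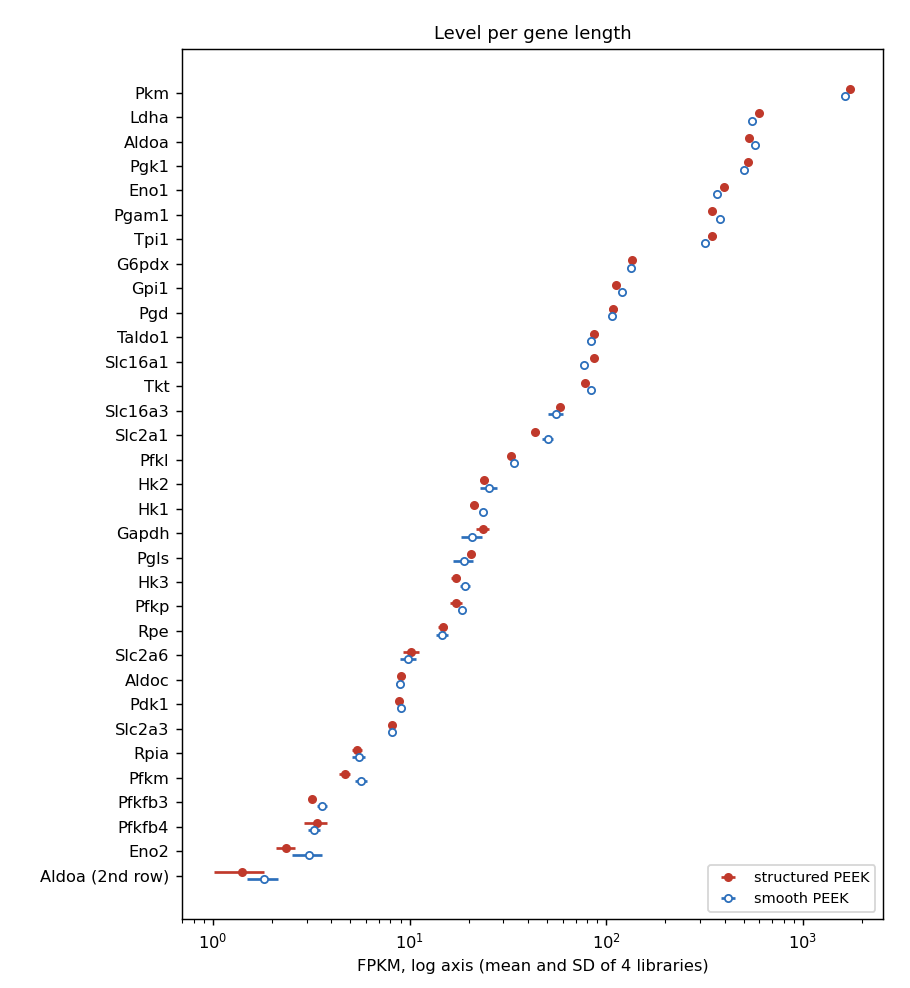
FPKM (log axis, mean and SD of 4 libraries) of 33 rows in descending order, with filled points for structured and open points for smooth PEEK; Ldhb is not drawn because 2 of its structured libraries are at 0. Pkm is at 1731 ± 21.9 FPKM on structured and 1629 ± 59.9 on smooth PEEK, and the Gapdh and Eno1 rows lack the counts given to their copies.

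A list of 70 other rows of glucose metabolism, of which 68 were tested, had a median log2 fold change of -0.02. In it 1 rose, the enolase copy Eno1b, and 2 fell, Got2 and Trp53, where 1.01% of all tested genes rose and 2.75% fell. Got2, the mitochondrial aspartate transaminase of the shuttle that moves NADH electrons into mitochondria, fell to 389.8 ± 5.56 CPM, against 430.0 ± 15.3 CPM on smooth PEEK (SD, n = 4 each; edgeR log2 fold change -0.14 ± 0.03, BH-adjusted p = 0.0490). It lost its call whichever of the 8 libraries was left out. Trp53, the p53 gene, which restrains glycolysis in several cell types, fell to 245 ± 9.10 CPM, against 279 ± 4.24 CPM (log2 fold change -0.19 ± 0.04; adjusted p = 0.0214), and lost its call without structured 2, structured 4, smooth 2 or smooth 3. After removal of the GC and length trend Trp53 kept its call (edgeR BH-adjusted p = 0.0439) and Got2 did not (0.0985). Across the alternatives the adjusted p ran from 6.4e-05 to 0.0980 for Trp53 and from 0.00209 to 0.138 for Got2.

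No gene of 17 for pyruvate and lactate, 6 further pentose phosphate genes or 9 glycogen genes was called by edgeR, with 4 higher and 2 lower, 0 and 0, and 1 higher and 4 lower at an unadjusted edgeR p under 0.05, where 8.14% and 10.6% of all tested genes were. Among the most abundant of these lists were Bsg, given above, and Dld, a subunit shared by pyruvate dehydrogenase and related complexes (0.03 ± 0.05), Prps1 and Prps2, which turn ribose phosphate into the precursor of nucleotides (0.08 ± 0.04 and -0.00 ± 0.04), and Pygb, a glycogen phosphorylase (-0.02 ± 0.05; log2 fold change ± SE). DESeq2 called 5 of the 70 rows higher and 6 lower. It called 4.84% and 7.63% of all genes to which it gave an adjusted p.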

How the data were processed

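RNA from 8 libraries was read from a table of estimated counts and FPKM per gene, both deposited by the authors. The deposited estimated counts are whole numbers whose low values pile up at multiples of 4 (32.1% of values from 1 to 40), and the cause is not given. FPKM were deposited by the authors as normalized values, and the gene lengths behind them are not given. Per the submitters' processing notes, cutadapt 1.9 and HISAT2 2.2.1 were used. Per the labels' protocols, the libraries were poly(A)-selected, strand-marked with dUTP and carried molecular identifiers. Nothing used here says whether these were counted, or names the counter, its strand setting, the annotation or the build (not given in the sources used here). Of the 26848 genes, 24103 had the coordinates of GENCODE M21, the annotation used for lengths and GC content.

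Replicate numbers were taken from the library names. Genes with too few counts (edgeR's filter, minimum count 10) were left out, 10842 of them. Counts were scaled by TMM and tested with edgeR 4.0.16 (quasi-likelihood, BH over 16006 genes, threshold 0.05) in R 4.3.3. CPM are counts per 1000000 of the scaled library size. The SE is the log2 fold change divided by the root of F. Library totals were 64479829 to 73098735, and the precision of each value is given by the spread between libraries.

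Alternatives were no filter, a minimum count of 40, counts divided by 4, DESeq2 1.42.0, its size factors, limma 3.58.1 (voom, and log2 FPKM plus 0.5, 0.1 or 1), a replicate block, each library left out, and removal of the GC and length trend (splines of 4 degrees of freedom per library, values for 99.9% of genes). Leaving out 3 libraries together and summing near-identical copies (BLAST 2.17.0, at least 95% identity over 300 bases) were added after seeing the data. The test was checked on simulated data. The members and lists were chosen with earlier results of these data known. Values are given per library for called members and the most abundant member of each step, and other genes are named where called or among the 2 most abundant of their list, except 1 gene that is not reported here; further members given per library were chosen after their values were seen.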

Additional observations from a re-analysis of the deposited data

Results flagged for a closer look

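In 4 genes 1 library stood apart from the other 3 of its surface by Dixon's test. Hk1 was at 181.89 CPM in structured 2, against 195.8 to 198.58 CPM in the other structured libraries. Tpi1 was at 1088.1 CPM in structured 2, where the others were at 978.73 to 992.0 CPM. Rpe was at 42.796 CPM in smooth 1, where the others were at 50.575 to 51.301 CPM. Tkt was at 686.31 CPM in smooth 2, where the others were at 643.01 to 650.28 CPM. Chance flags about 1 in 20 groups, or 4.2 of the 84 checked, and 4 were found.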

How the results depend on the processing

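Depth limits Ldhb and the second Aldoa row, both under 2 CPM, and the cause of the changes below was not tested. Counts are given as called higher and lower on structured PEEK; the test of the report gave 1 and 2 of the 34 rows, 1 and 2 of the other pathway genes and 161 and 440 of all genes, with a median log2 fold change of -0.02 over the 34 rows. DESeq2 called 4 and 8 of the 34 rows, 5 and 6 of the others and 518 and 817 of all genes. With no filter these were 1 and 0, 0 and 0, and 47 and 142. With limma on log2 FPKM plus 0.5 they were 1 and 0, 0 and 1, and 67 and 124, with 0.1 added 1 and 0, 1 and 1, and 89 and 153, and with 1 added 1 and 0, 0 and 1, and 65 and 122. A minimum count of 40 and counts divided by 4 each called 2 of the other genes higher, and DESeq2's size factors called 1 lower. With the GC and length trend removed the counts were 2 and 0, 0 and 1, and 121 and 160. Without structured 3, structured 4 and smooth 1 they were 0 and 0, 0 and 0, and 62 and 124, with a median of -0.0451. With copies summed, 2 and 2 of the 34 rows and 0 of the others higher were called. Leaving out 1 library gave 0 to 2 and 0 to 1 of the 34 rows, 0 and 0 to 3 of the others, 21 to 170 and 67 to 427 of all genes, and medians of -0.0372 to -0.0035.

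Same-numbered libraries correlated in their deviations from the group means at -0.06, 0.08, -0.0045 and -0.16, so the numbers were not taken to pair the samples, and not every library correlated best with its own number. The fit with the replicate number as a block called 3 and 1 of the 34 rows, 0 and 1 of the others and 125 and 374 of all genes.

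Signs turned for 11 genes near 0, none of them called. With the GC and length trend removed the log2 fold change was 0.0204 for Slc2a3, 0.0076 for Pfkl, -0.0081 for Pgd, -0.0299 for Rpe, -0.0076 for Dld and 0.0321 for Pygb. Without structured 3, structured 4 and smooth 1 it was -0.0166 for G6pdx, -0.0442 for Pgd, -0.0460 for Rpe, -0.0436 for Taldo1 and -0.0368 for Dld. Leaving out 1 library at a time gave -0.0371 to 0.0106 for Slc2a3, -0.0045 to 0.1008 for Slc2a6, -0.0266 to 0.1252 for Pfkfb4, -0.0133 to 0.0230 for Pgd, -0.0566 to 0.0275 for Rpe, -0.0111 to 0.0826 for Dld, -0.0247 to 0.0261 for Prps2 and -0.0489 to 0.0206 for Pygb. Prps2 was at 0.0016 with no filter, 0.0004 with a minimum count of 40, 0.0015 with DESeq2's size factors, 0.0013 with DESeq2, and 0.0047, 0.0048 and 0.0046 with limma on log2 FPKM plus 0.5, 0.1 and 1.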
